A study of Homo sapiens with 6 samples.

Results

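METTL14 occupancy was examined at the genes of 3 nuclear proteins, SFPQ, HNRNPA2B1 and CBX3, which fall into 2 loci of the hg19 genome. The SFPQ locus was taken as chromosome 1, 35630000 to 35670000, and the locus shared by HNRNPA2B1 and CBX3 as chromosome 7, 26215000 to 26260000. The members are the islands of either condition that overlapped these windows by at least 1 bp, an island being a run of windows with enriched reads called by SICER. They numbered 7 of 106498 candidate islands, of which 3 came from the 38696 of untreated cells and 4 from the 67802 of cells given DRB. The members were chosen by position, at loci proposed with the IP and input reads and folds of both tables already known. The values at the loci are therefore a description, and no FDR or p-value given below is a test of the loci. Gene models of hg19 were not used here, so the genes name the windows, and the islands were not placed on exons, introns or start sites.

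The data come from chromatin immunoprecipitation sequencing (ChIP-seq) with an antibody to the HA tag. The cells were HepG2, an established line from a human liver carcinoma. Stable cells carried METTL14 cDNA with an HA tag at the N terminus and EGFP at the C terminus, introduced with a PLJM1 lentiviral vector, selected with puromycin and sorted for high GFP. All 6 libraries are described as coming from such HepG2 cells: 2 immunoprecipitation (IP) libraries with the anti-HA antibody and 2 input libraries without DRB, and 1 IP and 1 input library after 100 µM DRB for 3 h. DRB inhibits CDK9, the kinase that releases paused RNA polymerase II, and so stops transcription elongation; its use asks how METTL14 sits on chromatin when genes are not being elongated. The tagged protein was overexpressed, and cells without the tag were not analysed here. Each condition has 1 table. The untreated replicate libraries are not separate in theirs and DRB was not replicated, so the spread between replicates is unknown. The intervals below are exact 95% intervals that reflect counting error alone.

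METTL14 forms a heterodimer with METTL3 that writes N6-methyladenosine (m6A) on nascent RNA in the nucleus, and METTL14 also binds histone H3 trimethylated at lysine 36, a mark of transcribed gene bodies. SFPQ, a splicing factor of the DBHS family, pairs with NONO and is an essential protein of paraspeckles, which assemble on the long RNA NEAT1. HNRNPA2B1 packages and sorts RNA and has been described as a nuclear reader of m6A. CBX3 is the HP1 gamma protein, which binds histone H3 methylated at lysine 9 and is also found along transcribed genes. HNRNPA2B1 and CBX3 lie head to head, and their shared CpG-rich promoter region is known as a ubiquitous chromatin opening element, used in vectors to keep transgenes active.

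The upstream sequences of HNRNPA2B1 and CBX3 are shown because the wide chromosome 7 island was assigned to this divergent pair. They are the 250 bases before each start site in the RefSeq table of GRCh38.p14, 5′ to 3′ on the strand of the gene: chr7:26200747-26200996 on the minus strand for HNRNPA2B1 and chr7:26201193-26201442 on the plus strand for CBX3. These positions are on another build and cannot be set against the hg19 islands. Capitals mark CGGAAG or its reverse complement CTTCCG, the core recognized by ETS factors, a motif chosen after the sequences were seen.
HNRNPA2B1: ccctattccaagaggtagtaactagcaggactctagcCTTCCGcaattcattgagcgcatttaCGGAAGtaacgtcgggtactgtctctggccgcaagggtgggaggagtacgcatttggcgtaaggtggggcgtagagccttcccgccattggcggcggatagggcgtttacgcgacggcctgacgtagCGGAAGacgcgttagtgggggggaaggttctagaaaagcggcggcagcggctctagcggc
CBX3: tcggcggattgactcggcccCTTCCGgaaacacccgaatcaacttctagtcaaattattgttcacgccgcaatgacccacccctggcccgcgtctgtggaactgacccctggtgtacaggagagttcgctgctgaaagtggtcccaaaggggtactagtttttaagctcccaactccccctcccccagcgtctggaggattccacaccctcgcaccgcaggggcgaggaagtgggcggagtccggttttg

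On that build the start sites of the pair are 697 bp apart. The HNRNPA2B1 window held 3 copies of CGGAAG, counting both strands, and the CBX3 window held 1. Of 35093 promoter windows of the same length, 16.5% held at least 1. GGGCGG, the GC box, occurred once upstream of CBX3 and not upstream of HNRNPA2B1 (42.6% of all windows), and TATAAA, the TATA box, in neither (10.7%). CCAAT and TGACG, the CCAAT box and the core of the cyclic AMP response element, each occurred once upstream of HNRNPA2B1 and not upstream of CBX3 (32.0% and 21.2% of all windows). Both strands were searched, and no match of one motif overlapped another. CpG dinucleotides numbered 24 upstream of HNRNPA2B1 and 16 upstream of CBX3, against a median of 11 over all windows. Of all windows, 76.3% had fewer than HNRNPA2B1 and 59.0% fewer than CBX3. G and C made up 59.2% and 58.8% of the bases, close to the median of 58%. Of the 11 genes of the DBHS, hnRNP A/B and HP1 families, 9 had an upstream window. Among the relatives, counts of CpG ran from 17 at NONO and 22 at PSPC1 to 30 at HNRNPAB and CBX1, 31 at HNRNPA0 and 34 at HNRNPA3. CBX5 had 3 windows with 17, 3 and 4. SFPQ and HNRNPA1 are named only.

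Read numbers differed between the conditions, and the part of depth, treatment or island calling in this was not tested. Candidate islands outside the mitochondrial genome held 14495388 IP and 14661480 input reads in untreated cells, and 1977419 and 1330018 with DRB. Fold is the ratio of IP to input reads after the authors' scaling, a factor of 1.07 in untreated cells and 0.861 with DRB. The median fold of all candidates was 1.08 untreated and 1.51 with DRB. The median candidate had 240 input reads untreated and 13 with DRB, and median input density was 52.3 and 7.0 reads per kb.

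In untreated cells a single island of 21.6 kb lay at SFPQ, on chromosome 1 at 35638601 to 35660200. It held 1467 IP against 1260 input reads, which is a 1.25-fold enrichment (1.16 to 1.35), or 293 IP reads more than the scaled input. The SFPQ gene model is 16.8 kb long in GRCh38.p14, so the island was longer than the gene, but whether it spans the gene was not examined. Read density was 67.9 IP and 58.3 input reads per kb, which is 1.30 and 1.11 times the medians of all untreated candidates. The excess was small relative to the input, and input itself was slightly above the usual level; how the reads were spread inside the island is not known from 1 value per island.

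At HNRNPA2B1 and CBX3, untreated cells had a 28.0 kb island on chromosome 7 at 26218801 to 26246800 and a 6.0 kb island at 26249201 to 26255200. The wide one held 1903 IP and 1662 input reads, a 1.23-fold enrichment (1.15 to 1.31), or 354 IP reads above the scaled input. The gene models are 10.8 kb for HNRNPA2B1 and 12.2 kb for CBX3 in GRCh38.p14. Lengths alone do not show which parts of either gene the island covers. The 6.0 kb island held 274 IP and 252 input reads, 1.17-fold, with an interval from 0.980 to 1.39 that includes no enrichment. Its fold could not be told from that of its wide neighbor, with a ratio of wide to narrow of 1.05 (0.873 to 1.27). Input density fell from 59.4 reads per kb in the wide island to 42.0 in the narrow one. Over both islands the locus had 2177 IP and 1914 input reads and a fold of 1.22 (1.15 to 1.30).

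The wide islands of both loci were on the authors' deposited list of significant islands, and the 6.0 kb island was not. That makes 2 of 3 untreated members, where 5.1% of all untreated candidates were on the list; the loci were proposed with these calls known, so nothing is read from that count. In the authors' deposited table the false discovery rates (FDR) were 1.83e-14 at SFPQ, 4.23e-16 in the wide island of HNRNPA2B1 and CBX3, and 0.0233 in the narrow one, with a list threshold of 1e-04. Those values treat the input as exact. An exact binomial test over all candidates, with Benjamini-Hochberg adjustment at the same threshold, includes the counting error of the input. In it 0.806% of candidates passed, and the same 2 islands were among them. That test used the reads known when the loci were proposed, so it adds no support to the calls.

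The loci could not be told apart by fold. The SFPQ fold over that of the HNRNPA2B1 and CBX3 locus was 1.02 (0.928 to 1.13) in untreated cells, an interval that includes 1. IP density was 67.9 reads per kb at SFPQ and 68.0 in the 28.0 kb island, and input density 58.3 and 59.4.

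**Figure D1:**
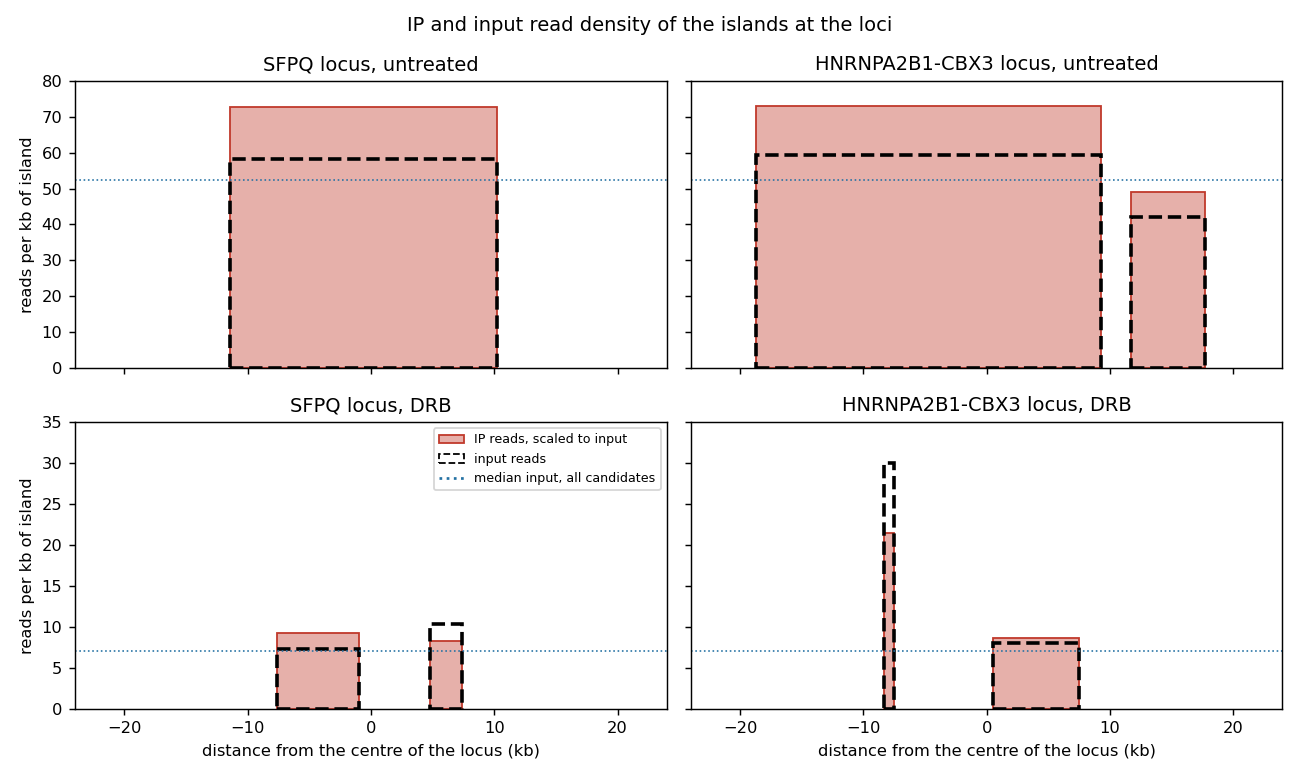
Read density of each island at the SFPQ locus (left) and the HNRNPA2B1 and CBX3 locus (right), untreated (top) and with DRB (bottom), in reads per kb against the distance from the centre of the locus in kb. Filled boxes are IP reads times the authors' scaling, dashed boxes are input reads and the dotted line is the median input density of all candidates of that condition. Each box is the mean density of 1 island. In untreated cells the filled box is the higher one in every island, also in the 6.0 kb island, whose fold interval includes 1. With DRB the dashed box is the higher one in the narrower island of each locus.

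Among all untreated candidates, both wide islands stood out by width more than by fold. SFPQ had a fold above 86.9% of untreated candidates and a width above 97.2%. The wide island of HNRNPA2B1 and CBX3 had a fold above 84.5% and a width above 98.4%. Among the 1246 untreated candidates of at least 20 kb, where the median fold was 1.01, SFPQ was 8th and the HNRNPA2B1 and CBX3 island 13th by fold. The intervals of the islands ranked beside them, such as 1.17 to 1.32 at rank 9 and 1.14 to 1.32 at rank 14, overlapped theirs, so the order among them is not resolved.

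Wide islands of the untreated table lay mostly on other chromosomes. Of the 1246, 95.3% were on chromosomes 2, 6, 14, 16, 17 and 20. Chromosome 1 had 7, and SFPQ was the only one of them on the significant list; the next highest fold was 1.04. Chromosome 7 had 8, and the island of HNRNPA2B1 and CBX3 was the only significant one, with a next highest fold of 1.09. Outside those 6 chromosomes, 58 islands were this wide, with a median fold of 1.03, and 12 were significant, the members included.

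**Figure D2:**
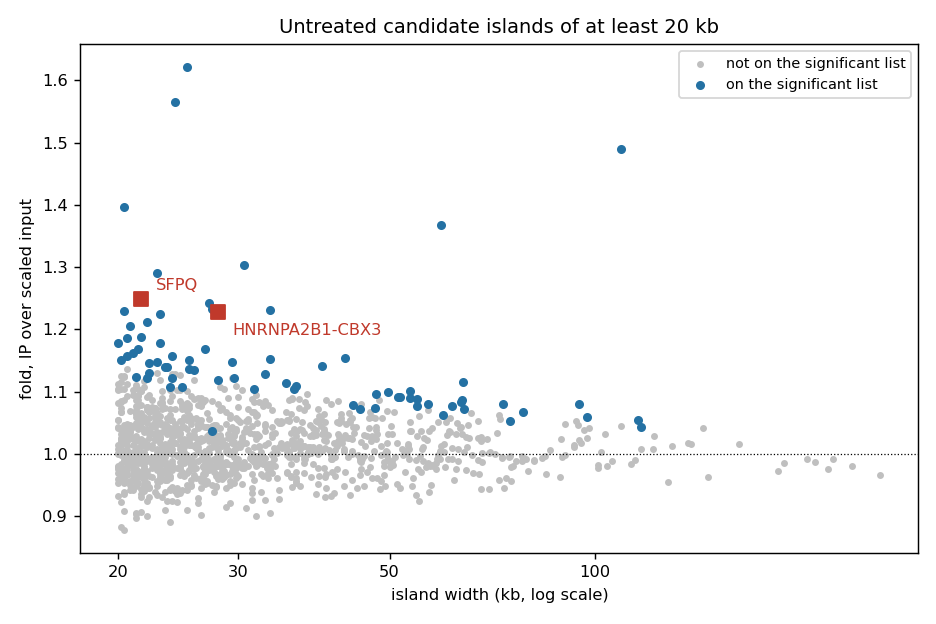
Fold against width in kb (log scale) for the 1246 untreated candidate islands of at least 20 kb; each point is an island, blue points are on the authors' significant list, and red squares are the members. SFPQ at 1.25 and HNRNPA2B1 and CBX3 at 1.23 sit above the bulk of islands of their width, which centre on a fold of 1.01, and below the few islands above 1.3.

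The surroundings gave a local baseline from the islands within 1 Mb on each side. Around SFPQ, 9 untreated islands of 1.4 to 7.6 kb covered 37.6 kb and together had a 1.06-fold enrichment (0.999 to 1.13), and 0 of them were on the significant list. SFPQ stood 1.18 times (1.07 to 1.30) above them. The ratio was 1.15 (1.04 to 1.28) with a flank of 500 kb and 1.10 (1.01 to 1.20) with 2 Mb. The 1 Mb flanks were unlike. The 2 islands on the side of lower coordinates had a pooled fold of 1.26, level with SFPQ, and the 7 on the other side had 1.04. The highest flank fold was 1.39 (1.02 to 1.90), on chromosome 1 at 35324801 to 35326200, from 97 IP and 75 input reads. It was the only flank island with a fold above that of SFPQ, and its interval contains the SFPQ value.

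Around HNRNPA2B1 and CBX3, 19 untreated islands of 0.8 to 18.0 kb covered 100.2 kb with a fold of 1.10 (1.06 to 1.15), and 1 of them was significant. The locus stood 1.11 times (1.03 to 1.19) above them, with 1.14 (1.05 to 1.24) for a flank of 500 kb and 1.13 (1.06 to 1.21) for 2 Mb. Here 4 of the 19 had a higher fold than the locus, the highest being 1.57 (1.10 to 2.26) at 25608001 to 25608800 from 79 IP and 54 input reads. The significant flank island, of 4800 bp, was another of the 4, with 363 IP and 278 input reads and a fold of 1.40 (1.20 to 1.64). The 2 islands toward lower coordinates had a pooled fold of 1.27, and the 17 on the other side 1.09. Folds as high as those of the members thus also occurred in flank islands, all of them narrower than the 28.0 kb island.

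Outside the windows, the nearest untreated islands lay 138.6 kb and 73.2 kb from the SFPQ island, with folds of 1.20 (0.970 to 1.49) and 1.04 (0.783 to 1.39). At HNRNPA2B1 and CBX3 they lay 225.0 kb and 76.0 kb away, with folds of 1.21 (1.03 to 1.42) and 1.37 (1.06 to 1.77), close to the values inside. With DRB the nearest outside islands lay 72.6 and 133.8 kb from the SFPQ islands and 15.8 and 34.4 kb from those of HNRNPA2B1 and CBX3. In the gene order of GRCh38.p14, the protein-coding neighbors are ZMYM1 and ZMYM4 for SFPQ, and NFE2L3 and SNX10 for HNRNPA2B1 and CBX3.

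**Figure D3:**
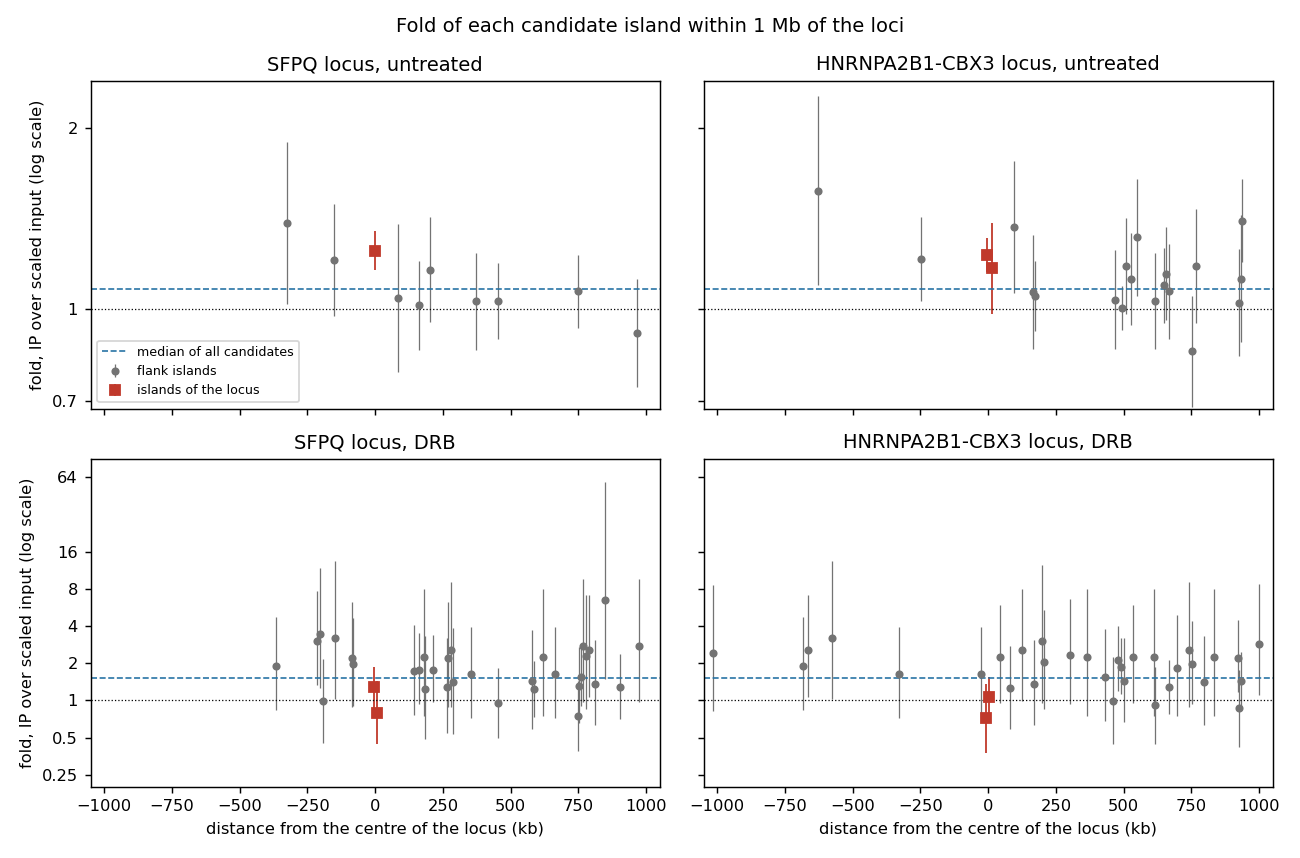
Fold of each candidate island (log scale) against its distance in kb from the centre of the locus, for islands within 1 Mb of each locus, untreated (top) and with DRB (bottom). Red squares are the members, grey points the flank islands, bars exact 95% intervals, and the dashed line the median of all candidates, 1.08 untreated and 1.51 with DRB. The untreated members lie above most flank islands, and the 4 DRB members lie below the dashed line.

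After DRB the long islands were not called as such. At SFPQ the DRB table had an island of 6.6 kb at 35642401 to 35649000, with 71 IP and 48 input reads, and another of 2.6 kb at 35654801 to 35657400, with 25 and 27. Their folds were 1.27 (0.870 to 1.88) and 0.797 (0.444 to 1.43), and the ratio between them, 1.60 (0.786 to 3.24), does not separate them. Both lay inside the untreated island and covered 42.6% of its length. Summed, they had 96 IP and 75 input reads and a fold of 1.10 (0.806 to 1.51).

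At HNRNPA2B1 and CBX3 the DRB islands were 0.8 kb at 26229201 to 26230000, with 20 IP and 24 input reads, and 7.0 kb at 26238001 to 26245000, with 70 and 56. Their folds were 0.717 (0.376 to 1.35) and 1.08 (0.746 to 1.56). Both lay inside the untreated 28.0 kb island, and 0 DRB islands lay over the untreated 6.0 kb island. The narrow one had 30.0 input reads per kb, 4.29 times the DRB median, and 25.0 IP reads per kb, 2.05 times the median. Its part in the low fold of the locus was not tested, and without it the DRB fold was 1.08. Summed, the locus had 90 IP and 80 input reads and a fold of 0.968 (0.708 to 1.33).

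Of the 4 DRB members, 0 were on the authors' significant list, where 4.76% of all DRB candidates were. In the authors' deposited table their FDR values were 0.0418 and 1 at SFPQ, and 1 and 0.304 at HNRNPA2B1 and CBX3. The exact binomial test, which passed 0.00442% of DRB candidates at an adjusted p of 1e-04, passed 0 of the 4, and their adjusted p-values in it were 0.266, 0.858, 0.912 and 0.482 in the same order.

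A difference between the folds of the conditions was not detectable with these read numbers. Relative to the flank of its own condition, each locus stood lower with DRB than untreated. The flank fold itself differed: 1.06 untreated and 1.65 with DRB at SFPQ, and 1.10 and 1.73 at HNRNPA2B1 and CBX3. Median input reads of the flank islands were 204 and 227 untreated, and 9 and 9.5 with DRB. No loss at the genes is therefore read from the ratios to the flanks. Set over the untreated fold, the DRB fold was 0.882 (0.639 to 1.22) at SFPQ and 0.793 (0.577 to 1.09) at HNRNPA2B1 and CBX3. Without the DRB island of highest input density at each locus, these ratios were 1.02 (0.691 to 1.51) and 0.882 (0.608 to 1.28). That alternative was chosen after seeing the data. Relative to the flanks, which were islands of different extent in each condition, the ratios were 0.568 (0.403 to 0.800) and 0.505 (0.361 to 0.706), with intervals from a normal approximation of the log ratio. The intervals of the plain ratios include no change, and they also include losses of the whole untreated enrichment, since a DRB fold of 1 lies within both DRB intervals. The folds are over unequal lengths, 9.2 kb with DRB against 21.6 kb untreated at SFPQ, and 7.8 against 34.0 kb at HNRNPA2B1 and CBX3. Untreated input was 7.16 times as dense as DRB input at SFPQ and 5.49 times at HNRNPA2B1 and CBX3, where the medians of all candidates differed by 7.47 times. Untreated IP was 6.51 and 5.55 times as dense as DRB IP, where the medians differed by 4.28 times.

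The DRB folds of the loci were low beside those of their flanks, whose islands held fewer input reads at the median. Around SFPQ, 32 DRB islands had a fold of 1.65 (1.45 to 1.89) and 3 were significant, and the locus stood at 0.667 (0.474 to 0.942) of them. Around HNRNPA2B1 and CBX3, 32 islands had a fold of 1.73 (1.52 to 1.98) and 1 was significant, and the locus stood at 0.559 (0.398 to 0.788). The fold was above that of the locus in 29 of 32 and 30 of 32 flank islands. The highest were 6.46 (1.50 to 58.2) on chromosome 1 at 36499401 to 36499800, from 15 IP and 2 input reads, and 3.23 (1.03 to 13.4) on chromosome 7 at 25660401 to 25662000, from 15 and 4.

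The flank islands had median widths of 1.8 and 1.6 kb and medians of 9.0 and 9.5 input reads, against 48, 27, 24 and 56 input reads in the members. Input reads are the denominator of the fold, so a fold and its input reads are not independent, and the part of read number in these ratios was not tested. The 2232 DRB candidates of at least 6 kb had a median fold of 1.09 (quartiles 0.965 and 1.25), beside 1.27 in the 6.6 kb SFPQ island and 1.08 in the 7.0 kb island. On chromosome 1 alone, 36 such candidates had a median of 1.07 (quartiles 0.981 and 1.18), below the SFPQ island. On chromosome 7 alone, 15 had a median of 1.24 (quartiles 1.10 and 1.38), above the 7.0 kb island. Against the 5 SFPQ flank islands with at least 20 input reads, the locus stood at 0.954 (0.636 to 1.43), and against 3 such islands at HNRNPA2B1 and CBX3 at 0.643 (0.417 to 0.992). That filter selects on input reads, and its part in these ratios was not tested. No reading of the loci is made from the filtered or the unfiltered flank. The 26340 DRB candidates with 1 to 10 input reads had a median fold of 2.15. The 4986 nuclear ones with at least 40 had 1.02 (quartiles 0.879 and 1.16), beside 1.27 and 1.08 in the members with 48 and 56. The members with 27 and 24 input reads are in neither class. Their folds of 0.797 and 0.717 were above those of 2.62% and 1.11% of all DRB candidates. Both classes are set by input reads, so these values are a description only. DRB IP density was 0.880 and 0.787 times the median of DRB candidates at SFPQ, and 0.818 times in the 7.0 kb island. Input density in these members was 1.04, 1.48 and 1.14 times the median. The 0.8 kb island differed, with IP density 2.05 times and input density 4.29 times the median.

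**Figure D4:**
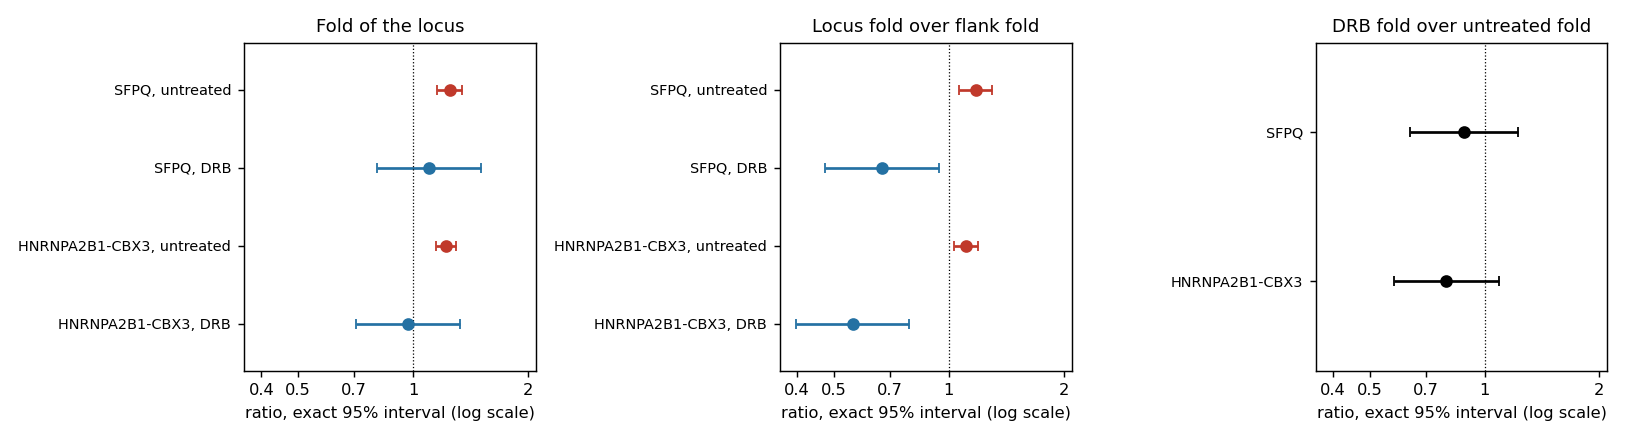
Fold of each locus (left), locus fold over the fold of the islands within 1 Mb (middle) and DRB fold over untreated fold (right), as ratios on a log scale with exact 95% intervals of counting error; red is untreated and blue is DRB. Untreated intervals lie above 1 in the left and middle panels, DRB intervals include 1 on the left and lie below it in the middle, and both intervals of the right panel include 1.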

How the data were processed

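HA-METTL14 ChIP-seq was sequenced as single-end reads of 50 nt, per the labels' protocols. Per the submitters' processing notes, Bowtie 1.1.2, FastQC 0.11.5 and SICER were used with hg19. SICER's settings and how replicates were combined: not given in the sources used here. The deposited tables have no headers. From their values, the deposited counts are IP and input reads per island, not normalized, the deposited fold is a ratio of those counts times a constant, and the deposited p-value and FDR belong to that ratio. The deposited significant lists give positions only. Both ends of the 0-based intervals were raised by 1.

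Reads were summed over the islands of each locus. Fold intervals are Clopper-Pearson intervals of the IP share, and ratios of folds have exact conditional intervals, both at 95%. Reads are not independent molecules, so these cover counting error only. The members, lists and alternatives were chosen with earlier results of these data known. The classes of DRB islands by width and by input reads were chosen after seeing these values. Named islands are all members, the highest flank fold of each table and locus, and the nearest outside islands, the last added after seeing the data. Promoter features came from RefSeq, GRCh38.p14; all 3 gene names matched its gene table. The binomial test and intervals were tested on simulated data. The work ran in Python 3.11.15 with SciPy 1.17.1, pandas 2.3.3, matplotlib 3.10.9 and numpy 2.4.6.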

Additional observations from a re-analysis of the deposited data

How the results depend on the processing

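No paired analysis was possible because the replicate libraries are not separate in the deposited tables; for the same reason no replicate could be left out. Of 57 alternative values for 14 results, 54 stayed within the counting interval of the reported value or kept the count of significant islands. Several of the 54 changed no reads and could not differ. Examples are islands wholly inside the locus and flanks without islands of high input density. The DRB counts of 0 were kept in a binomial test that passed 0.00442% of DRB candidates. The 54 are therefore not a measure of robustness. With each condition taken relative to its own flank, DRB over untreated fold was 0.568 (0.403 to 0.800) at SFPQ and 0.505 (0.361 to 0.706) at HNRNPA2B1 and CBX3, intervals from a normal approximation of the log ratio. The cause was not tested. With only flank islands of at least 20 input reads, the DRB fold of SFPQ over its flank was 0.954. That alternative was chosen after seeing the data. It selects on input reads, the fold's denominator, and its part in the ratio was not tested. Scaling by the total reads of candidate islands gave untreated folds of 1.18 and 1.15 and DRB folds of 0.861 and 0.757 at SFPQ and at HNRNPA2B1 and CBX3. With flank islands at least 2 kb wide, also chosen later, the DRB interval of SFPQ over its flank (0.508 to 1.06) included 1. Low read numbers limit the DRB values: 75 and 80 input reads lay behind them.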
